A study of Rattus norvegicus with 48 samples.

Results

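Gp2, Tspan1, P2rx4, Slc7a12 and Apobec1 are 5 genes whose array values in kidney RNA differed between rat strains, and they were chosen by that difference. They are 5 of 7997 genes measured on the arrays, read through 50 of 92401 probe sets. A probe set is a small group of probes on 1 stretch of a transcript, and its value is a log2 intensity. Kidneys of male rats, given as 12 weeks old in the sample labels and as 12 to 14 weeks in the protocol, were profiled in 4 strains called F, FL, L and LF. In each strain, day 7 and day 10 rats were gavaged daily with indole-3-carbinol (100 mg/kg/day), and day 0 rats with its vegetable oil carrier. Indole-3-carbinol comes from cabbage family plants, and the stomach turns it into ligands of the aryl hydrocarbon receptor, which switches on Cyp1a1. Each of the 12 groups had 4 arrays, and the protocol states 8 rats per group. No group had the carrier alone at days 7 and 10, so effects of the compound and of the days cannot be told apart. The labels leave the strain names unexpanded and the number of rats behind an array unstated. Background that the labels do not give is that such rats carry a renin transgene driven by a Cyp1a1 promoter, and that FL and LF exchange a chromosome segment between the F and L backgrounds.

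The proteins of 4 of these genes sit in membranes. Gp2 encodes glycoprotein 2, a lipid-anchored protein with a zona pellucida domain, known from the enzyme granules of the exocrine pancreas and closely related to uromodulin, the main protein of urine. Tspan1 encodes a tetraspanin, one of a family that organises other membrane proteins. P2rx4 encodes a channel that extracellular ATP opens to cations. Slc7a12 belongs to the SLC7 family of amino acid transporters. Apobec1 is no membrane gene: it encodes the cytidine deaminase that edits apolipoprotein B messenger RNA from C to U, so the shared feature of the 5 is their strain pattern and not a place in the cell.

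All 5 genes had a promoter window in RefSeq's table of the GRCr8 rat genome (250 bases before to 50 after the annotated start). Those of Gp2, Tspan1 and P2rx4 are printed because the array values of these genes set the strains apart. That of P2rx7, a neighbour of P2rx4 with a like pattern, is printed too. The reference sequence is of the BN strain and not of F or L. Capitals mark matches, read on both strands, to the TATA box, the HNF1 motif and the GC box spelled out after the sequences, and no printed match overlaps another. The windows lie on the minus strand at chr1:183243905-183244204 (Gp2), chr5:134888681-134888980 (Tspan1), chr12:39523040-39523339 (P2rx4) and chr12:39594873-39595172 (P2rx7).
Gp2: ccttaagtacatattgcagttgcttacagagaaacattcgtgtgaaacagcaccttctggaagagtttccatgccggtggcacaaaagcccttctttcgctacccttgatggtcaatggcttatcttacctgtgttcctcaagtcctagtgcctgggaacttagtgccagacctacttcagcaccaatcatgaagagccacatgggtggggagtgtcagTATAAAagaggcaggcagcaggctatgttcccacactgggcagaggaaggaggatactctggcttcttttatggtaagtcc
Tspan1: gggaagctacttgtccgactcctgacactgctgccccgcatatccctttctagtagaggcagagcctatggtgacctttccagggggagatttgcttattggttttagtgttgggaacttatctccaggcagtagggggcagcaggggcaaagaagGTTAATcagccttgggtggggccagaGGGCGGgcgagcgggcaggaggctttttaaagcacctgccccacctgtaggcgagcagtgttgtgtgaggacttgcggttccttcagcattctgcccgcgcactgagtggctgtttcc
P2rx4: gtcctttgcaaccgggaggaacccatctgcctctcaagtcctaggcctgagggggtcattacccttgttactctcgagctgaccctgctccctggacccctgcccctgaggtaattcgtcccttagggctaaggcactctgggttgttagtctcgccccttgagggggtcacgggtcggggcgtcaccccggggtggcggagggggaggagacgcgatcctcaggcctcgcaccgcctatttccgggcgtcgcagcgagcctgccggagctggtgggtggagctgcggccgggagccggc
P2rx7: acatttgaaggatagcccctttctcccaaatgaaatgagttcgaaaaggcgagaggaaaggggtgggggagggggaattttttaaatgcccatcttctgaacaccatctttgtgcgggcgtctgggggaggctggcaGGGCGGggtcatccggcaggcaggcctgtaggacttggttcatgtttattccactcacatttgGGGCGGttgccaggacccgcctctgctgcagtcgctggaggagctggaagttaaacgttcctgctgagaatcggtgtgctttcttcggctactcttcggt
TATAAA, the TATA box, began 31 bases before the start of Gp2 and was also in the Slc7a12 window, and 14.2% of all 33469 promoters in the table held it. GTTAAT, part of the site of the kidney and liver factor HNF1, was found at Tspan1 and Slc7a12 (7.45% of all promoters). GGGCGG, the GC box, was found at Tspan1 and Apobec1 (33.1%), and at 113 and 50 bases before the start of P2rx7. GCGTG, the core of the aryl hydrocarbon receptor site, was in 0 of the 5 windows and in 29.7% of all promoters. The P2rx4 window held no match and 21 CpG dinucleotides, against 3 at Gp2, 9 at Tspan1, 0 at Slc7a12, 2 at Apobec1 and a median of 7 over all promoters. These matches describe letters in the windows only.

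Over the 3 days the F and FL kidneys had higher values than the L and LF kidneys for all 5 genes. These differences chose the genes, so they and the separation of arrays that goes with them are descriptions with no test. How many of all genes had no overlap between the 2 sides was not counted. Values are log2 differences ± SE from the fit over all genes (24 arrays against 24). Gp2 differed by 2.13 ± 0.11 (4.39-fold), Tspan1 by 1.34 ± 0.09 (2.53-fold), Apobec1 by 1.32 ± 0.11 (2.50-fold), P2rx4 by 0.95 ± 0.07 (1.93-fold) and Slc7a12 by 0.90 ± 0.08 (1.87-fold). Over all 7997 genes this contrast, used by the choice of the members, called 4.29% higher and 13% lower in F and FL (adjusted p under 0.05), and the median gene differed by -0.02. In bulk kidney RNA, fewer cells of a type and less RNA per cell cannot be told apart.

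**Figure D1:**
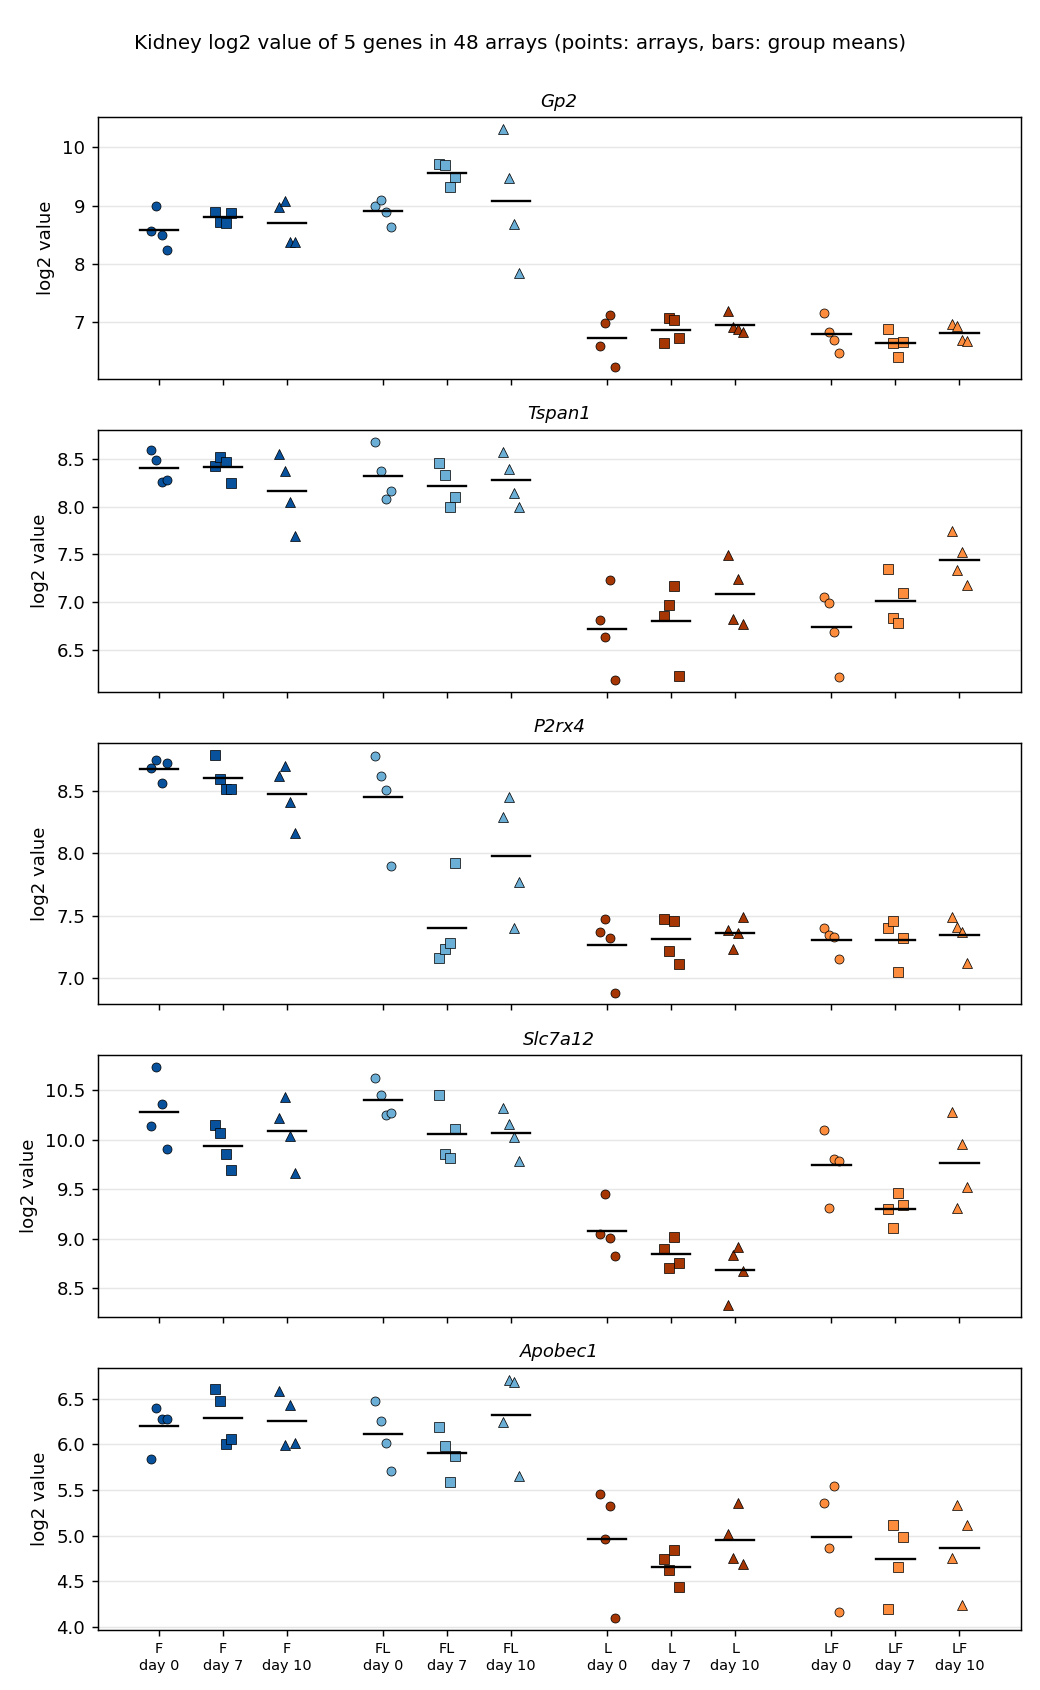
Log2 value of Gp2, Tspan1, P2rx4, Slc7a12 and Apobec1 in every array (points) with the mean of the 4 arrays of each group (bars), for strains F, FL, L and LF at days 0, 7 and 10. Gp2 and Apobec1 separate F and FL from L and LF in every array, P2rx4 in FL spans both levels, and Slc7a12 in LF lies between L and the 2 higher strains.

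Gp2 had the largest difference of the 5. In F and FL arrays the lowest, median and highest log2 values were 7.85, 8.89 and 10.31, against 6.22, 6.83 and 7.18 in L and LF arrays. The ranges did not overlap, and the means of F and FL minus those of L and LF were 1.98 (day 0), 2.42 (day 7) and 2.00 (day 10). FL kidneys averaged more than F kidneys (9.18 ± 0.64 against 8.69 ± 0.28, SD, n = 12 each, a difference of 0.49 ± 0.15, SE), and LF kidneys were near L kidneys (6.75 ± 0.22 against 6.85 ± 0.27). In the order of the 12 group means, the 6 groups of FL and F came first, from FL at day 7 (9.56 ± 0.19, SD, n = 4) down to F at day 0 (8.57 ± 0.31). The next group, L at day 10 (6.96 ± 0.16), lay 1.62 lower, and this was the one step in the order larger than the SD of the groups beside it. The 4 FL arrays at day 10 read 10.31, 9.47, 8.68 and 7.85, a wider spread (SD 1.06) than in any other Gp2 group. Even the lowest of them was above every L and LF array.

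Tspan1 followed the same division with a tail at day 10. Its lowest, median and highest values were 7.70, 8.35 and 8.68 in F and FL arrays and 6.18, 6.98 and 7.75 in L and LF arrays. The ranges overlapped at day 10, where an F array at 7.70 lay below an LF array at 7.75. FL and F arrays had like means (8.28 ± 0.23 against 8.33 ± 0.26, SD, n = 12 each), and so did LF and L arrays (7.06 ± 0.41 against 6.87 ± 0.40). F and FL minus L and LF came to 1.64 (day 0), 1.41 (day 7) and 0.96 (day 10). Of the 4 LF arrays at day 10, which read 7.75, 7.34, 7.53 and 7.17, each was above every LF array at day 0 (7.05, 6.99, 6.69 and 6.21). The difference between these 2 groups did not pass (limma adjusted p = 0.107). The share of all genes separated this way was not counted. In the order of group means only the steps from F at day 10 to LF at day 10 (0.72) and from there to L at day 10 (0.37) exceeded the larger SD of the groups beside them.

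Apobec1, the editing enzyme, also had no overlap between F and FL arrays and L and LF arrays. Its lowest, median and highest values were 5.59, 6.22 and 6.70 in F and FL arrays, against 4.10, 4.86 and 5.55 in L and LF arrays. FL minus F was -0.13 ± 0.16 and LF minus L was 0.00 ± 0.16 (SE). The only step between group means larger than the spread was the one from FL at day 7 (5.91 ± 0.25) to LF at day 0 (4.98 ± 0.62, SD, n = 4 each). By day, F and FL minus L and LF came to 1.18 (day 0), 1.40 (day 7) and 1.38 (day 10).

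Slc7a12 was the gene in which LF did not sit with L. LF arrays had lowest, median and highest values of 9.10, 9.49 and 10.28, against 8.33, 8.87 and 9.45 in L arrays, and 7 of 12 LF arrays were above every L array. FL arrays (9.78, 10.20 and 10.62) and F arrays (9.67, 10.10 and 10.73) were higher again and overlapped each other, with all 12 FL arrays within the range of F. Set side by side, LF minus L was 0.73 ± 0.11, LF minus F was -0.50 ± 0.11 and FL minus F was 0.07 ± 0.11 (SE). The mean of LF was thus between those of L and F, while the other 4 genes had LF minus L between -0.10 (Gp2) and 0.20 (Tspan1). Slc7a12 group means ran in small steps from FL at day 0 (10.40 ± 0.18) to L at day 10 (8.69 ± 0.26, SD, n = 4). Only the step from LF at day 0 to LF at day 7 (0.44) exceeded the larger of the adjacent SDs.

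P2rx4 separated F from L in every array, but the FL arrays were spread over both levels. FL arrays had lowest, median and highest values of 7.16, 7.91 and 8.78, against 8.16, 8.60 and 8.79 in F arrays, 6.88, 7.36 and 7.49 in L arrays and 7.05, 7.36 and 7.49 in LF arrays. The SD over 12 arrays was 0.58 in FL, 0.17 in F, 0.18 in L and 0.14 in LF. By array, FL read 8.78, 8.62, 8.51 and 7.89 at day 0, 7.16, 7.24, 7.28 and 7.92 at day 7, and 8.29, 8.45, 7.40 and 7.77 at day 10. Of the 12 FL arrays 5 were at or above the lowest F array, 4 at or below the highest L array, and 3 between. FL minus L was 0.63 ± 0.10 and FL minus F was -0.64 ± 0.10 (SE), in size the largest FL minus F difference among the 5 genes. In the order of group means only the step from FL at day 10 to FL at day 7 (0.58) exceeded the larger SD beside it. For each of Gp2, Tspan1, Slc7a12 and Apobec1, 0 of 12 FL arrays fell in the range of L. Strain differences chose these genes, and the share of all genes with FL and L apart in every array was not counted. Acsm5, a mitochondrial acyl-CoA synthetase gene near Gp2, read 5.14 to 5.73 in FL arrays, 5.15 to 5.80 in F arrays, 7.73 to 8.16 in L arrays and 7.56 to 8.09 in LF arrays, so every FL array was below every L array there.

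P2rx7, which encodes a second ATP-gated channel and is the next measured gene beside P2rx4 on chromosome 12, had the same picture. P2rx7 was higher in F and FL than in L and LF (5.10 ± 0.49 against 4.28 ± 0.19, SD, n = 24 each, difference 0.82 ± 0.08, limma adjusted p = 2.73e-11), and lower in FL than in F (-0.57 ± 0.11, adjusted p = 0.00415). By array, FL read 5.97, 5.05, 5.13 and 4.94 at day 0, 4.61, 4.27, 4.22 and 4.71 at day 7, and 4.98, 4.85, 4.25 and 4.82 at day 10. In FL 5 of 12 arrays were at or above the lowest F array, 5 at or below the highest L array, and 2 between. The 4 FL arrays lowest in P2rx4 were also the 4 lowest in P2rx7, namely numbers 1 to 3 at day 7 and number 3 at day 10. The kinase gene Camkk2, on the other side of P2rx4, differed less (0.19 ± 0.05, adjusted p = 0.00355), and its FL minus F difference did not pass (-0.15 ± 0.07, adjusted p = 0.545). Levels of different genes are not compared here, since each probe set has its own scale.

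**Figure D2:**
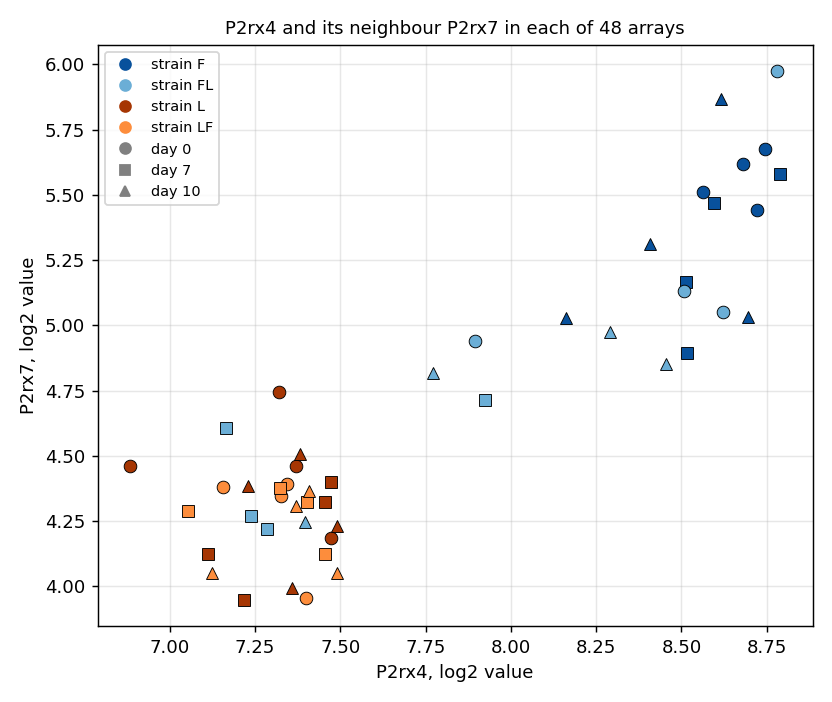
Log2 value of P2rx4 (horizontal) and of P2rx7 (vertical) in each of the 48 arrays, coloured by strain and shaped by day. F arrays lie at the upper right and L and LF arrays at the lower left, and the 12 FL arrays run from one to the other, with 3 of the 4 FL arrays at day 7 among those of L and LF.

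Probe sets of 1 gene read different stretches of its transcript, and nearly all of them had the strain difference. The gene values were made from these same probe sets, so the choice of the genes made this likely. It is given as a description only. All 13 Gp2 probe sets had a positive F and FL minus L and LF difference (median 2.06, highest 3.11), and 9 of them had no overlap between the 2 sides. The lowest, at 0.00, was among the dimmest 30% of all probe sets. The 8 Tspan1 probe sets lay between 1.24 and 1.84, with 1 of them free of overlap. How many of all probe sets were free of overlap was not counted. The 6 Apobec1 probe sets lay between 0.35 and 1.71. P2rx4 had 13 probe sets, of which 11 lay between 0.92 and 1.18. The other two were lower, and one of these was the brightest of the gene (mean log2 value 9.54), which differed by 0.18 with an FL minus F of 0.09. In the remaining 12 P2rx4 probe sets FL was below F, by -0.31 to -0.92. The 10 Slc7a12 probe sets lay at 0.47 or above (median 0.82), and LF was above L in each of the 10.

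**Figure D3:**
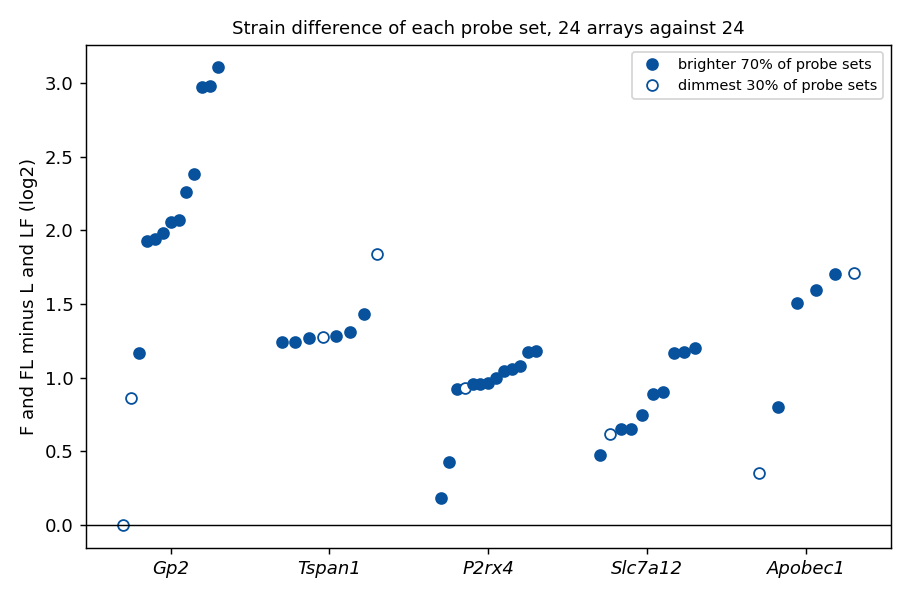
Log2 difference of F and FL minus L and LF for each of the 50 probe sets of the 5 genes, sorted within a gene (open circles mark probe sets among the dimmest 30%). All points lie at or above 0, and Gp2 reaches 3.11 while P2rx4 stays at or below 1.18.

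Gp2 is on chromosome 1, Slc7a12 on 2, Apobec1 on 4, Tspan1 on 5 and P2rx4 on 12. Over all genes, limma called 28 between FL and F and 826 between FL and L, 54 between LF and L and 567 between LF and F. Chromosome 10, which holds none of the 5 genes and 677 of the 7997 tested, had 4 of the 28 and 14 of the 54. By these counts FL was nearer to F and LF nearer to L. Gp2, Tspan1 and Apobec1 had that division, although FL averaged above F for Gp2 (0.49 ± 0.15, SE). Within the range of F lay 4 of 12 FL arrays for Gp2, 11 for Tspan1 and 7 for Apobec1. The FL arrays of P2rx4 were spread over both levels (5 at or above the lowest F array, 4 at or below the highest L array and 3 between). For Slc7a12 the mean of LF lay between those of L and F.

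The 3 nearest measured genes on either side of each gene were read for the same strain difference. Of these 30 neighbours 11 passed the limma test for F and FL minus L and LF, 3 higher and 8 lower, where 4.29% of all genes were higher and 13% lower. Beside Gp2, uromodulin itself did not pass (Umod, 12.75 ± 0.14 in F and FL against 12.75 ± 0.11 in L and LF, SD, n = 24 each, difference 0.00 ± 0.04, adjusted p = 0.947). The testis disulfide isomerase gene Pdilt differed by 0.15 ± 0.04 (adjusted p = 0.00332), and Acsm5 differed the other way by -2.32 ± 0.04 (adjusted p = 4.99e-35), a difference as large as that of Gp2. Arl6ip1 (-0.26), Syt17 (-0.22) and Coq7 (-0.22) were lower in F and FL too. Of the 6 genes beside Tspan1 limma called 0, and 1 had an unadjusted p under 0.05, with differences from -0.18 (Tmem69) to -0.01 (Pomgnt1). Beside Slc7a12 only Ralyl passed (-0.26 ± 0.08), and the carbonic anhydrase genes Car2 (0.00) and Car3 (-0.11) did not. Beside Apobec1 the mannose 6-phosphate receptor gene M6pr (-0.32 ± 0.04) and the lectin gene Clec4a1 (-0.42 ± 0.10) were lower. Around P2rx4, P2rx7 and Camkk2 were higher and Hpd, an enzyme of tyrosine breakdown, was lower (-0.15 ± 0.03, adjusted p = 0.000933). Of the 3 neighbours called in the direction of their member, P2rx7 differed most (0.82), before Camkk2 (0.19) and Pdilt (0.15).

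**Figure D4:**
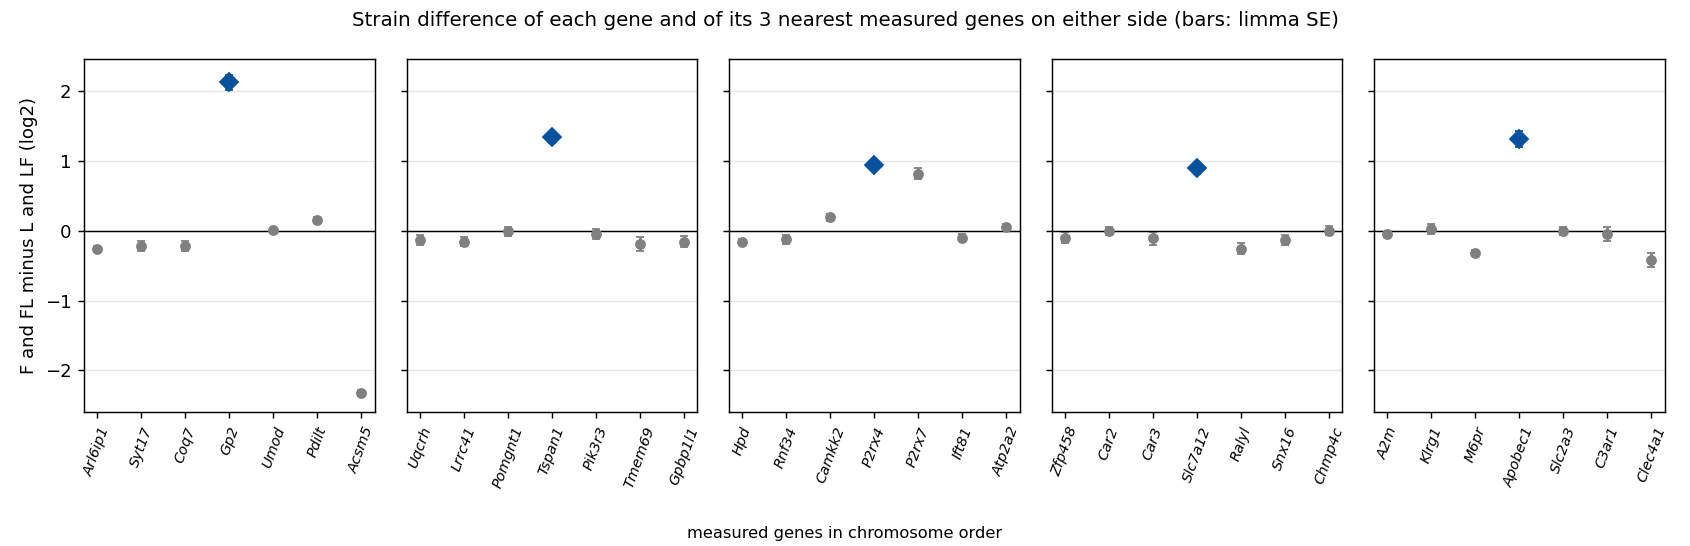
Log2 difference of F and FL minus L and LF (limma SE as bars) for each of the 5 genes (diamonds) and its 3 nearest measured genes on either side in chromosome order (circles). P2rx7 stands near P2rx4 at 0.82, and Acsm5 stands opposite Gp2 at -2.32.

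At day 7 Slc7a12 was called lower than at day 0 over the strains together, and P2rx4 was called lower in FL. The other 3 genes had no call between days. The comparison between days was not used to choose the genes. As a mean over strains at day 7, Slc7a12 fell by 0.34 ± 0.09 on the log2 scale (SE, n = 16 arrays at day 7 against 16 at day 0, limma adjusted p = 0.0259), 1 of 5 members called where 4.98% of all genes were called. It averaged 9.94 ± 0.21 at day 7 against 10.28 ± 0.35 at day 0 in F, 10.05 ± 0.29 against 10.40 ± 0.18 in FL, 8.84 ± 0.14 against 9.08 ± 0.26 in L, and 9.30 ± 0.15 against 9.75 ± 0.32 in LF (SD, n = 4 each). The day 7 mean was below the day 0 mean in each strain and in each of the 4 replicate numbers (-0.27, -0.55, -0.31 and -0.22), while the array ranges of the days overlapped in each strain. The call was lost after quantile normalization (-0.27, adjusted p = 0.0582), without strain FL (-0.34, adjusted p = 0.0795) and without any of 5 arrays, namely the first FL and LF and the second F and L at day 0 and the last F at day 7 (adjusted p up to 0.0543). Of the 50 member probe sets 2 passed at day 7, both of Slc7a12 and both lower, where 1.87% of all probe sets passed. Blocked on the replicate number 8 of the 50 passed, where 4393 of all probe sets did. At day 10 limma called 0 of the 5 genes and 0 of their 50 probe sets (5 with an unadjusted p under 0.05), where it called 2.3% of genes and 0.708% of probe sets. Slc7a12 differed then by -0.22 ± 0.09 (unadjusted p = 0.0234, adjusted p = 0.348), the 1 gene of the 5 with an unadjusted p under 0.05. Between day 10 and day 7 limma called 0 of the 5 genes (0.075% of all), 0 of them with an unadjusted p under 0.05.

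P2rx4 was lower in FL at day 7 than at day 0. The days were read in different rats, and FL arrays also spread at day 0 and day 10 (SD 0.39 and 0.48, n = 4 each). A change with the days and a difference between the FL rats sampled thus cannot be told apart. The 4 FL arrays at day 7 read 7.16, 7.24, 7.28 and 7.92, against 8.78, 8.62, 8.51 and 7.89 at day 0, so 3 of the 4 lay below every day 0 array and the last lay beside the lowest. The fit gave -1.05 ± 0.17 (2.07-fold lower, limma adjusted p = 0.00113), and 0.15% of all genes were called in FL at day 7. Within replicate numbers the difference was -1.62, -1.38 and -1.22 in numbers 1 to 3 and 0.03 in number 4. In a fit on the FL day 7 and FL day 0 arrays alone it did not pass (adjusted p = 0.266). The main fit shares 1 spread over all groups, and P2rx4 spread more within the FL groups than within those of the other strains. P2rx7 differed in FL at day 7 by -0.82 ± 0.19 (adjusted p = 0.0476, or 0.626 without the first FL day 0 array, and 31 of 48 single arrays ended the call). With dim probe sets left out it was -0.42 (adjusted p = 0.742). At day 10 in FL, P2rx4 differed by -0.47 ± 0.17 and did not pass (adjusted p = 0.873, 0.025% of genes called), with -0.66 without the last FL array at day 0 and -0.28 without the third at day 10. In F the differences were -0.07 at day 7 and -0.21 at day 10, in L 0.05 and 0.10, and in LF 0.00 and 0.04, each ± 0.17 and none past the test. As a mean over strains P2rx4 differed at day 7 by -0.27 ± 0.09 (adjusted p = 0.0637), to which FL contributed most. Blocked on the replicate number, this mean passed (adjusted p = 0.028).

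Tspan1, Gp2 and Apobec1 had no call in any comparison between days. In LF kidneys at day 10 Tspan1 averaged 7.45 ± 0.25, against 6.74 ± 0.38 at day 0 (SD, n = 4 each), a difference of 0.71 ± 0.21 with an adjusted p of 0.107 where 1.04% of genes were called. Blocked on the replicate number the same difference passed (adjusted p = 0.00712), and the 4 within-number values were 0.70, 0.35, 0.84 and 0.96. In L at day 10 Tspan1 differed by 0.37 ± 0.21 and did not pass, with 0.19 to 0.54 when single arrays were left out (lowest without the last L array at day 0). The largest Gp2 difference was 0.66 ± 0.26 in FL at day 7, with all 4 arrays at day 7 (9.32 to 9.71) above all 4 at day 0 (8.63 to 9.10), and it did not pass (adjusted p = 0.712). Such a separation of 4 arrays from 4 was not counted over all genes. Apobec1 differences within strains lay between -0.30 and 0.21. Of the 40 within-strain comparisons of the 5 genes, that of P2rx4 in FL at day 7 alone was called. Over all genes limma called 0.688% in F at day 7 and 0.375% at day 10, 2.44% in LF at day 7, and 0% in L at day 7 and 0% at day 10, where 340 and 336 of 7997 genes had an unadjusted p under 0.05.

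**Figure D5:**
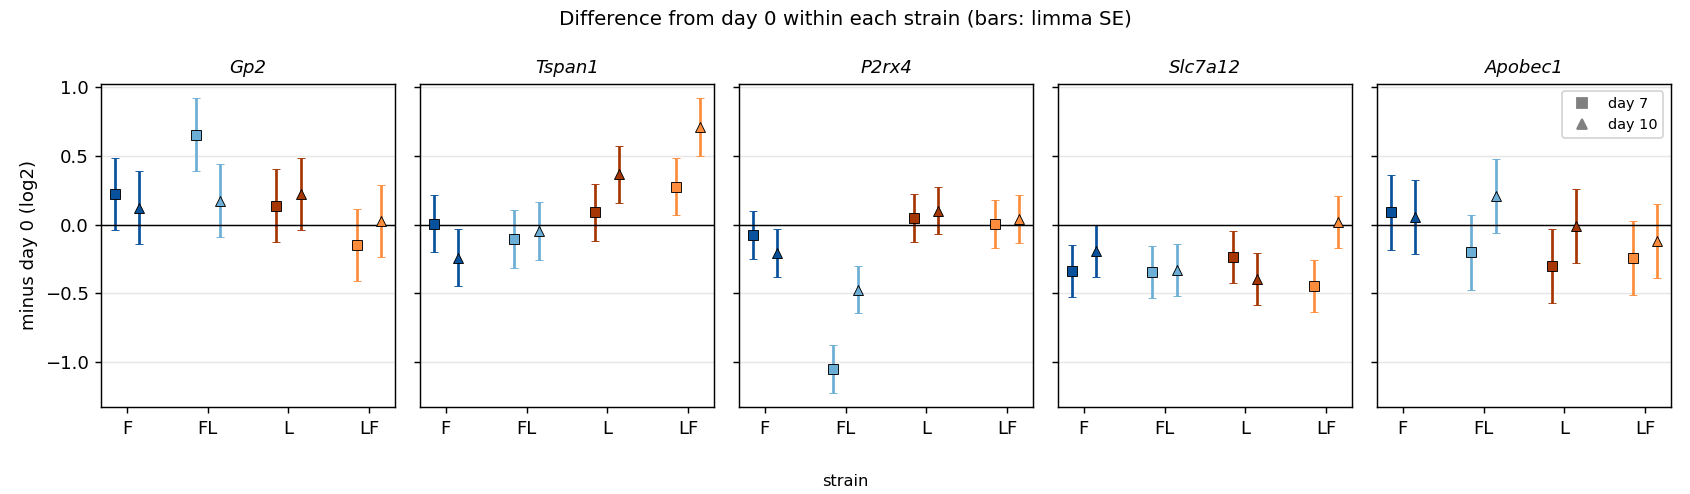
Log2 difference of day 7 (squares) and day 10 (triangles) from day 0 within each strain for the 5 genes, with limma SE as bars and 4 arrays in each group. P2rx4 in FL at day 7 lies at -1.05, Slc7a12 lies below 0 in all 4 strains at day 7, and Tspan1 in LF at day 10 lies at 0.71.

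Whether the strains moved differently with the days was tested directly. The response of F and FL minus that of L and LF called 0 of the 5 genes at day 7 and 0 at day 10, where it called 0.0125% and 0.025% of all genes. In limma's test, members with an unadjusted p under 0.05 were P2rx4 at day 7 (-0.59 ± 0.17, adjusted p = 0.623) and, at day 10, Tspan1 (-0.68 ± 0.21, adjusted p = 0.928) and P2rx4 (-0.41 ± 0.17, adjusted p = 0.992). The strain by day F test over 6 contrasts called 0.2% of genes and 0 of the 5, with P2rx4 the one member under an unadjusted 0.05 (adjusted p = 0.179). Without the last FL array at day 0, or without the last at day 7, 1 of the 5 was called, and after quantile normalization 1 was. As a check of exposure, Cyp1a1 rose over strains by 1.21 ± 0.20 at day 7 and 1.55 ± 0.20 at day 10 (adjusted p = 0.000121 and 2.11e-06), and the injury gene Havcr1 rose by 1.52 ± 0.23 and 2.49 ± 0.23.

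Relatives and partners of the 5 genes were counted in 6 lists. Of their 69 measured genes outside the 5, limma called 4 higher and 13 lower in F and FL, with a median difference of -0.04, where it called 343 higher and 1042 lower of all 7997 genes (4.29% and 13%) with a median of -0.02. Among 13 P2 receptors, which sense extracellular nucleotides, P2rx7 and P2ry13 (0.27 ± 0.08, adjusted p = 0.0179) were higher and P2ry1, an ADP receptor, was lower (5.88 ± 0.25 in F and FL against 6.54 ± 0.26 in L and LF, difference -0.66 ± 0.07, adjusted p = 2.46e-09). The ATP-gated channels P2rx5 (-0.03) and P2rx6 (-0.04) did not pass and were chosen after their values were seen. Of 15 enzymes, channels and receptors around extracellular ATP and adenosine, Adora3 (0.32) and Enpp3 (0.28) were higher and Panx2 (-0.36) and Adora1 (-0.29) lower. Of 17 tetraspanins 0 were higher and 7 lower, led by Cd82 (-0.21), the leukocyte marker Cd53 (-0.31), Tspan13 (-0.17) and Tspan5 (-0.21). Among 11 SLC7 transporters and their SLC3 partners limma called 0, and 1 had an unadjusted p under 0.05, the arginine transporter Slc7a2 (0.15 ± 0.06, adjusted p = 0.101). Of 8 zona pellucida domain genes 2 were lower, Dmbt1 (-0.30) and Tgfbr3 (-0.13). Of 5 editing partners Apob, whose message Apobec1 edits, was lower (-0.27 ± 0.08, adjusted p = 0.00818), and the cofactors Rbm47 (-0.08) and A1cf (-0.12) did not pass.

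Between days the same 69 genes had 2 higher and 6 lower at day 7 (median -0.05), where 88 were higher and 310 lower of all 7997 (4.98%, median -0.03). At day 10 1 was higher, where 2.3% of all genes were called. Those lower at day 7 were P2rx7 (-0.34, but -0.18 with adjusted p = 0.295 without FL and -0.17 with adjusted p = 0.239 without dim probe sets), Enpp3 (-0.37), the adenosine-making enzyme Nt5e (-0.20), Tspan12 (-0.24), the transporter Slc7a13 (-0.23) and Umod (-0.15). Dmbt1 was higher by 0.51 and 0.54 at the 2 times, and Zp3 by 0.19 at day 7. Nt5e, Tspan12, Slc7a13 and Zp3 were chosen after their values were seen. For the contrast of FL and L minus F and LF, 0.263% of all genes were higher and 0.5% lower. Among the lists Dmbt1 alone was called (-0.32 ± 0.06, adjusted p = 0.00447). A shift in FL alone or in LF alone can make this value, so an effect of the exchanged segment was not tested. The members' differences in this contrast were 0.30 for Gp2, -0.07 for Apobec1, -0.13 for Tspan1, -0.32 for P2rx4 and -0.33 for Slc7a12. FL minus F and LF minus L were 0.49 and -0.10 for Gp2, -0.13 and 0.00 for Apobec1, and -0.06 and 0.20 for Tspan1. They were -0.64 and 0.01 for P2rx4, which lay almost wholly in FL, and 0.07 and 0.73 for Slc7a12, mostly in LF.

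The genes whose 12 group means ran most like those of a member were found among genes with 3 or more probe sets. These correlations describe group means that share the 4 strains, and they carry no test. Nearest to Gp2 were the class I histocompatibility gene RT1-CE16 (Pearson r = 0.96, n = 12 groups), the carnitine synthesis gene Tmlhe (0.95) and the aldo-keto reductase gene Akr1c2 (0.95). Akr1c2 and the plasma prekallikrein gene Klkb1 came among the first 3 for Tspan1 and again for Apobec1, with Lilrb4 for Tspan1 and Tmlhe for Apobec1 (0.98). Nearest to P2rx4 were P2rx7 (0.98), Camkk2 (0.96) and Skic2 (0.93). Slc7a12 was less closely matched, by Pacsin1 (0.91), Or2y13 (0.89) and the cell death gene Bcl2l11 (0.88).

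Kidney markers were bright, and most pancreatic acinar markers were dim. Each probe set has its own scale, so dim values do not show that a cell type was absent. The 10 measured kidney tubule and glomerulus markers averaged 10.44 to 10.94 in F and FL arrays and 10.53 to 10.92 in L and LF arrays, with 2 called higher and 1 lower. Of 11 pancreatic acinar markers, 8 were among the dimmest 30% of genes, and their mean ranged from 3.73 to 4.15 in F and FL arrays and from 3.69 to 4.07 in L and LF arrays, with Cela1 alone called (0.21). Macrophages also make P2rx4, P2rx7 and Apobec1, and 3 of 5 of their markers were lower in F and FL, with 1 of the 5 dim (list mean 5.72 to 6.58, against 6.05 to 6.84 in L and LF). Over all genes 4.29% were called higher and 13% lower in F and FL. Lymphocyte markers had 1 of 5 lower and 1 of 5 dim. Hepatocyte markers had 2 of 5 lower and 4 of 5 dim, with the called Serpina1 among the dim. Adrenal, intestinal and urothelial markers had 0 called of 5, 2 and 1 (1, 0 and 0 with an unadjusted p under 0.05), all of them dim. The part of these cells in the members' levels was not tested. Array medians ran from 6.03 to 6.54 in F and FL and from 6.07 to 6.61 in L and LF, so the deposited values were not equal in level across arrays.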

How the data were processed

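Each deposited value is a log2 intensity of 1 probe set on 1 array, which the submitters' processing notes tie to RMA and limma, without versions or settings. Array medians over deposited values ran from 6.03 to 6.61, so the arrays' quantiles are not equal in the files, although RMA commonly equalises them before summarising probes. Probe set names came from the platform annotation, updated through the GRCr8 gene table: 85406 had 1 symbol, 1803 several and 5192 none, and only the first kind gave gene values. A gene value is the Tukey median polish of its probe sets over the 48 arrays. limma 3.58.1 (R 4.3.3) fitted 7997 genes, and separately 92401 probe sets, with a mean for each of 12 groups, eBayes, two-sided tests and Benjamini-Hochberg adjustment over the whole table. Genes with an adjusted p under 0.05 were called. The fit was tested on simulated data.

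The members and gene lists were chosen with earlier results of these data known. Named genes are the members, up to 4 per list by adjusted p, the 3 nearest measured genes on either side of a member, the 3 most alike, Cyp1a1, Havcr1 and Umod. Dim means the lowest 30% by mean value. Arrays with the same replicate number also share the start of their file names in the labels, so the number was examined as a possible batch. The mean correlation of deviations from the group means was 0.0948 for 264 same-number pairs (112 above 0.1) and -0.0564 for 864 other pairs, and the number was not taken to pair animals. The design text calls the arrays of a group biological replicates without naming animals, so p-values measure the spread between arrays, whose number limits the precision. Alternatives were the number as a block, quantile normalization, means of probe sets, leaving out dim probe sets or dim genes, the compared groups alone, leaving out each array, and leaving out FL, the last added after seeing the data. Figures were drawn with matplotlib 3.10.9.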

Additional observations from a re-analysis of the deposited data

Results flagged for a closer look

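In each group of 4 arrays, a member was checked for 1 array far from the other 3 (its gap over the group's range above 0.829). Of 60 groups tested 1 met this, and chance alone marks about 1 in 20. In FL at day 7, P2rx4 read 7.92 in 1 array, against 7.16 to 7.28 in the other 3, with a ratio of 0.841. Without this array the P2rx4 difference in FL between day 7 and day 0 stayed called, as it did without any other single array (-1.23 to -0.94, limma adjusted p at most 0.0152). These fits share 1 spread over all groups, while P2rx4 group SDs were 0.35 to 0.48 in FL and 0.08 to 0.26 in the other strains. On the FL day 7 and FL day 0 arrays alone the difference did not pass (adjusted p = 0.266).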

How the results depend on the processing

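With single arrays left out, the strain differences of the members lay close to the values given, Gp2 between 2.07 and 2.20, Tspan1 between 1.31 and 1.37, Apobec1 between 1.27 and 1.36, P2rx4 between 0.92 and 0.98 and Slc7a12 between 0.87 and 0.93. Day calls depended on the processing. At day 7, over strains, 1 member was called, 2 with the replicate number as a block, with dim genes left out and on the compared groups alone, and 0 after quantile normalization and without FL (0 to 2 without single arrays). Genes called in all were 398, 894 with the block and 603 after quantile normalization. P2rx4 joined at day 7 with the block (adjusted p = 0.028), without dim genes (0.0453) and on the compared groups (0.0409). The interaction test called 1 member after quantile normalization (0 to 1 without single arrays). Within strains 1 member comparison was called, 2 with the block, after quantile normalization and without dim probe sets, through Tspan1 in LF at day 10 (adjusted p = 0.00712, 0.00819 and 0.0334), and 0 on the compared groups alone. P2rx7 in FL at day 7 was lost after quantile normalization (adjusted p = 0.0556), without dim probe sets (-0.42, adjusted p = 0.742) and on the compared groups (0.403). Member probe sets called at day 7 were 2, and 8 with the block, where those called in all were 1725 and 4393. List genes called for FL and L minus F and LF were 1, 3 with the block and 3 after quantile normalization (1 to 2 without single arrays). All genes called for it were 113 with the block and 179 after quantile normalization, against 21 higher and 40 lower before. List genes called for F and FL minus L and LF were 14 to 19 without single arrays. Signs turned for 2 uncalled differences, Tspan1 at day 7 with means of probe sets (-0.040) and Apobec1 at day 10 without FL (-0.026, and -0.039 to 0.089 without single arrays). The cause was not tested.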
